A study of Mus musculus with 6 samples.

Results

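Cyp7b1, Cyp8b1, Abcb11 and Aqp8, the genes of 2 bile acid synthesis enzymes and of 2 transport proteins of the bile canaliculus, are 4 of the 1834 genes in the deposited table of mouse liver RNA sequencing. They were taken from the table by symbol, and they were chosen because their levels differed between its groups, so the differences below are given as a description and not as a test. The study compared livers of wild-type mice that received AAV-GFP, an adeno-associated virus carrying green fluorescent protein (3 libraries), with livers labelled Ly6d overexpression that received AAV-Ly6d (3 libraries). All animals were on the same diet, and the title of the study names metabolic dysfunction-associated steatotic liver disease (MASLD). The labels and series text used here do not name the diet, the sex and age of the mice, the promoter in the vectors or the time from injection to collection. Nothing in the labels states that libraries of a group are separate animals, and their spread may therefore be partly technical.

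Hepatocytes make bile acids from cholesterol by a classical route that starts with Cyp7a1 and by an alternative route that starts with side-chain oxidation. Cyp7b1 hydroxylates the oxysterols of the alternative route, and its expression in mouse liver is known to be higher in males. Cyp8b1, the sterol 12-alpha-hydroxylase, directs the pathway towards cholic acid, and so sets how much of the pool is 12-hydroxylated. Abcb11, the bile salt export pump, moves conjugated bile salts from the hepatocyte into the canaliculus, and Aqp8 is a water channel of the canalicular membrane and of intracellular membranes of hepatocytes. Bile acids act on the nuclear receptor Nr1h4 (FXR), which is known to activate Abcb11 and to repress synthesis, while Hnf4a is a known activator of Cyp8b1.

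The table holds part of each library, between 3248078 and 4359932 reads, and the full depth is not known. Its genes had been selected: the smallest absolute log2 fold change among the 1780 genes tested was 0.32, their median was -0.67, and the groups of 3 did not overlap for 84.5% of them. In limma, 782 genes (43.9%) passed a Benjamini-Hochberg adjusted p of 0.05, with 283 (15.9% of the tested genes) higher in AAV-Ly6d and 499 (28.0%) lower. After each library was rescaled by its median ratio over the table, 651 of 941 calls were higher, and the median moved by 0.34. These factors, like the TMM factors used below, came only from the selected genes, of which 39.3% had a log2 fold change above 0. Such scaling assumes that most genes do not differ, so here it can remove part of a difference between the groups. Values after rescaling show dependence on scaling and do not decide which scale is right. Ly6d itself ranged from 9.68 to 182 normalised read counts in AAV-GFP and from 1799 to 3275 in AAV-Ly6d, as the labels state. AAV-GFP replicate 2 stood apart from the other 5 libraries: Apob, a very long hepatocyte transcript, made up 20.1% of the summed values there and at most 6.41% elsewhere. Values without that library are given for the 4 genes, and for other listed bile acid genes whose call it changed.

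The sequences just upstream of the genes are shown because known regulators of these genes bind near their starts and some of those regulators are in the table. RefSeq (GRCm38.p6) gave a promoter for 3 of the 4 genes, the exception being Cyp7b1. The 250 bases before the start are printed 5′ to 3′ on the strand of the gene, counted from RefSeq's start, at chr9:121916306-121916555 (minus strand), chr2:69342617-69342866 (minus strand) and chr7:123462044-123462293 (plus strand). Capitals mark matches to the motifs listed after them.
Cyp8b1: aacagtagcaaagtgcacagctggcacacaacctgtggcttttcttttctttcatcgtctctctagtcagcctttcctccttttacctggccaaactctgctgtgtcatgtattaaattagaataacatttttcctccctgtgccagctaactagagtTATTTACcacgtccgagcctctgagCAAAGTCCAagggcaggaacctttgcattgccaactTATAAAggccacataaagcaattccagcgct
Abcb11: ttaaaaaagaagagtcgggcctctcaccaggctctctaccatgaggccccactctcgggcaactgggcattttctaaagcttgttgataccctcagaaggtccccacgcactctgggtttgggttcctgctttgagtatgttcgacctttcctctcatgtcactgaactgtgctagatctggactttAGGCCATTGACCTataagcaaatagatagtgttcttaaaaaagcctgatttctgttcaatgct
Aqp8: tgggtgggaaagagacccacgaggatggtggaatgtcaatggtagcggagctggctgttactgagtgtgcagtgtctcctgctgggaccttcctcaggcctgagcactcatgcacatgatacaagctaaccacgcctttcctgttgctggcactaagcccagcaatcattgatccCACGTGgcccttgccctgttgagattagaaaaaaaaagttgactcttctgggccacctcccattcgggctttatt

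Motifs were searched on both strands, and each share is that of 32817 RefSeq windows of the same length. Cyp8b1 held CAAAGTCCA, a core of HNF4 sites, from 67 to 59 bases before the start, which 0.384% of windows held. It also held the FOXA core TNTTTAC (10.9% of windows) and TATAAA (12.4%). Abcb11 held AGGNCANTGNCCT, an inverted repeat spaced by 1 base of the kind that FXR is known to bind, from 63 to 51 bases before the start. That motif was found in 0.0853% of windows. The N inside each arm allows any base, and the first arm in Abcb11, AGGCCA, differs from AGGTCA at that base. Since the motif was set with the sequence already seen, its rarity is not evidence about the site. The second arm is also a match to the nuclear receptor motif AGGTCA, read on the other strand, which 14.0% of windows held. Aqp8 held the E-box CACGTG (6.02%). The ESRRA motif TCAAGGTCA (0.387% of windows) and the D-box TTATGNAA (3.07%) had no match in the 3 windows. The motifs were chosen after the sequences and values had been seen, and a match describes letters, not binding.

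Both synthesis genes were higher in the livers that received Ly6d. Cyp7b1 (ENSMUSG00000039519, chromosome 3, 18071950 to 18243338, minus strand, GRCm38) held normalised read counts of 2232, 2208 and 1428 in AAV-GFP replicates 1 to 3 and 4492, 6709 and 4019 in AAV-Ly6d replicates 1 to 3. The groups were well separated, and the lowest AAV-Ly6d library stood 80.0% above the highest AAV-GFP library. The mean of the 3 AAV-GFP libraries was 1956 ± 458 and that of the 3 AAV-Ly6d libraries 5073 ± 1436 (SD), which gives a ratio of 2.59 and a log2 fold change of 1.37 (SE 0.27). Fold changes here are on the log2(value + 1) scale. In bulk tissue, more RNA per cell cannot be told apart from more cells of the type that holds it.

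Cyp8b1 (ENSMUSG00000050445, chromosome 9, 121914356 to 121916305, minus strand) is a gene of 1 exon. It held 6545, 7833 and 7435 in AAV-GFP and 13551, 9039 and 17074 in AAV-Ly6d. The AAV-GFP libraries lay close together, whereas the AAV-Ly6d libraries were spread widely, and replicate 2 of AAV-Ly6d was only 15.4% above the highest AAV-GFP library. The mean of the 3 AAV-GFP libraries was 7271 ± 659.5 and that of the 3 AAV-Ly6d libraries 13221 ± 4028 (SD), which gives a ratio of 1.82 and a log2 fold change of 0.82 (SE 0.25).

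The canalicular genes were lower in AAV-Ly6d. Abcb11 (ENSMUSG00000027048, chromosome 2, 69238282 to 69342616, minus strand) held 11848, 14744 and 8384 in AAV-GFP and 5696, 6646 and 7305 in AAV-Ly6d. AAV-GFP replicate 2 was the highest library and AAV-GFP replicate 3 was only 14.8% above the highest AAV-Ly6d library. The mean of the 3 AAV-GFP libraries was 11659 ± 3184 and that of the 3 AAV-Ly6d libraries 6549 ± 808 (SD), so that AAV-GFP held 1.78 times as much, with a log2 fold change of -0.80 (SE 0.24). After rescaling by the median ratio the groups met, with a ratio of the lowest AAV-GFP to the highest AAV-Ly6d library of 1.00, and the log2 fold change was -0.46. The factors came from the selected genes themselves, so this is not a neutral check of the difference.

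Aqp8 (ENSMUSG00000030762, chromosome 7, 123462291 to 123468004, plus strand) had the largest difference and the largest spread of the 4. It held 659, 2088 and 1089 in AAV-GFP and 210.0, 247 and 568 in AAV-Ly6d. AAV-GFP replicate 2 was again the highest library, and the groups were separated by 16.0% between AAV-GFP replicate 1 and AAV-Ly6d replicate 3. The mean of the 3 AAV-GFP libraries was 1278 ± 733 and that of the 3 AAV-Ly6d libraries 342 ± 197 (SD). AAV-GFP thus held 3.74 times as much, with a log2 fold change of -1.89 (SE 0.49). Its lowest library rested on 216 reads, for which the exact Poisson 95% interval is 188 to 247 reads, so counting error was small beside the difference between libraries. The other genes had at least 1692 reads in every library, and these intervals cover counting error only.

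**Figure D1:**
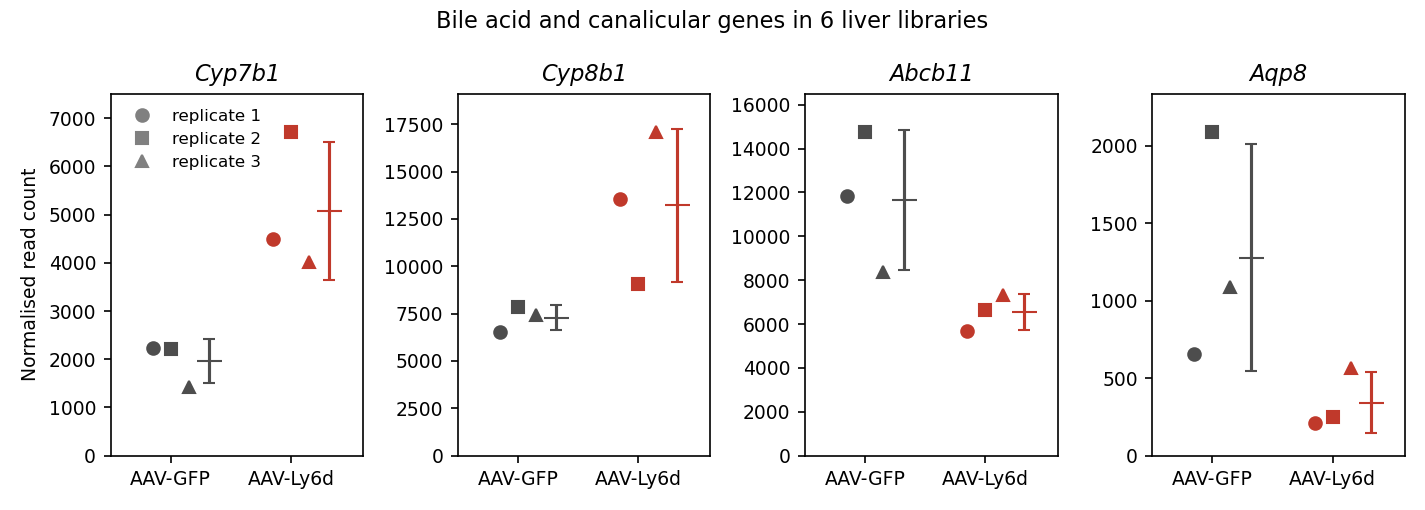
Normalised read count (vertical axis, from 0) of Cyp7b1, Cyp8b1, Abcb11 and Aqp8 in 3 AAV-GFP and 3 AAV-Ly6d liver libraries. Each point is 1 library with the marker giving the replicate, and the mean with SD stands to the right of each group. Cyp7b1 and Cyp8b1 are higher and Abcb11 and Aqp8 lower in AAV-Ly6d, and the groups of each gene do not overlap on the deposited scale.

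All 4 genes passed limma's threshold, where 43.9% of the tested genes did (15.9% higher and 28.0% lower), and all 4 had groups that did not overlap, where 84.5% of tested genes did. Neither count carries information about these genes, since they were picked from a table of differing genes by their difference. By absolute log2 fold change they ranked 235 (Aqp8), 483 (Cyp7b1), 1043 (Cyp8b1) and 1070 (Abcb11) among the 1780 tested genes. Cyp8b1 and Abcb11 thus lay below the middle of that ranking, while by mean value they were at ranks 63 and 69. After rescaling, Abcb11 did not pass and the other 3 did, where 52.9% of tested genes passed. The same 3 had groups that did not overlap after rescaling, where 68.1% of tested genes did. For Aqp8 the ratio of the lowest AAV-GFP to the highest AAV-Ly6d library was then 1.01, so its groups nearly met. With AAV-Ly6d replicate 1 or 3 left out, 0 of the 4 passed. With AAV-Ly6d replicate 2 left out 1 passed (Cyp8b1). Leaving out AAV-GFP replicate 1 kept 2 calls (Cyp7b1 and Aqp8), and leaving out AAV-GFP replicate 3 kept 2 (Cyp7b1 and Abcb11).

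Per length of transcript, the order of the 4 genes differed between the groups. In AAV-GFP, Cyp8b1 had the highest level, 3729 ± 338 normalised read counts per kb of its longest annotated transcript (SD, n = 3), followed by Abcb11 with 2320 ± 634. Abcb11 was below Cyp8b1 in each AAV-GFP library. Cyp7b1 (903 ± 211 per kb) and Aqp8 (860 ± 493 per kb) overlapped in AAV-GFP and could not be ordered. In AAV-Ly6d the order was Cyp8b1 with 6780 ± 2066, Cyp7b1 with 2342 ± 663, Abcb11 with 1303 ± 161 and Aqp8 with 230 ± 132 per kb (SD, n = 3), and no neighbours in that order overlapped. On this per-kb scale Abcb11 and Cyp7b1 had exchanged places.

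Ratios within a library do not depend on how the libraries were scaled. The ratios below are per kb, but the length that divides a gene is the same in both groups. Division by it therefore leaves in any part of the fold change that moved with transcript length across the table. Tested genes within 20% of the length of Abcb11 had a median log2 fold change of -0.80. The same median was 0.59 for genes near the length of Cyp7b1 and 0.61 near that of Cyp8b1. The part of length in these ratios was not tested. The per-kb ratio of Cyp7b1 to Abcb11 was 0.437, 0.347 and 0.395 with AAV-GFP and 1.83, 2.34 and 1.28 with AAV-Ly6d. Per kb, the export pump transcript was the higher of the pair in all 3 AAV-GFP libraries and the lower in all 3 AAV-Ly6d libraries. Before division by length, Abcb11 stayed above Cyp7b1 in AAV-Ly6d replicates 1 (5696 and 4492) and 3 (7305 and 4019). In AAV-Ly6d replicate 2 it was just below (6646 and 6709). The per-kb ratio of Cyp8b1 to Abcb11 was 1.42, 1.37 and 2.29 in AAV-GFP and 6.13, 3.50 and 6.02 in AAV-Ly6d, again without overlap. The ratio of Cyp8b1 to Cyp7b1 was 3.26, 3.94 and 5.78 in AAV-GFP and 3.35, 1.50 and 4.72 in AAV-Ly6d. These groups overlapped, so no difference in the balance between the 12-hydroxylation enzyme and the oxysterol hydroxylase stood out from the spread. The ratio of Abcb11 to Aqp8 overlapped as well, with 5.32, 2.09 and 2.28 in AAV-GFP and 8.03, 7.96 and 3.81 in AAV-Ly6d.

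**Figure D2:**
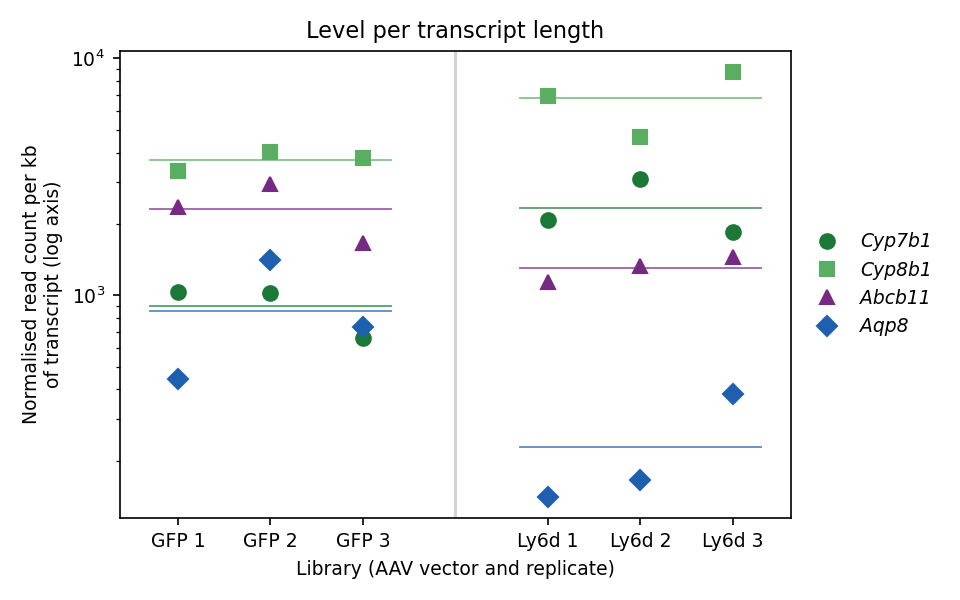
Normalised read count per kb of the longest annotated transcript (log axis) of Cyp7b1, Cyp8b1, Abcb11 and Aqp8 in each of 6 libraries, with horizontal lines at the mean of each group of 3. Abcb11 lies above Cyp7b1 in the 3 AAV-GFP libraries and below it in the 3 AAV-Ly6d libraries.

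Within a group the genes did not vary alike. Within AAV-Ly6d, replicate 2 was the highest library for Cyp7b1 and the lowest for Cyp8b1, and replicate 3 was the lowest for Cyp7b1 and the highest for Cyp8b1, Abcb11 and Aqp8. Within AAV-GFP, replicate 2 was the highest for Cyp8b1, Abcb11 and Aqp8. The SD of log2 values for Aqp8 was 0.83 in AAV-GFP and 0.77 in AAV-Ly6d, above the medians of all tested genes (0.43 and 0.28). For Cyp8b1 it was 0.13 in AAV-GFP and 0.46 in AAV-Ly6d, and for Abcb11 0.41 and 0.18. Cyp7b1 had nearly the same spread in both groups, 0.37 and 0.39.

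Few other genes of the pathway were tested. Of 117 further genes in 6 lists of bile acid synthesis, transport, secretion and regulation, 12 were tested: 3 rose, 3 fell and 6 did not pass, which is near the 43.9% of all tested genes that passed (15.9% higher and 28.0% lower). Their median log2 fold change was -0.59, beside -0.67 over all tested genes. Such counts cover only genes that entered a table of differing genes and say nothing of the rest of the pathway. Of 12 listed bile acid detoxification genes and 24 cholesterol synthesis and uptake genes 0 were tested, and these were not analysed here.

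The remaining synthesis gene did not follow the enzymes above. Cyp2c70, which makes muricholic acids from chenodeoxycholic acid in mice, held 2360, 5107 and 1986 in AAV-GFP and 1751, 1144 and 2083 in AAV-Ly6d. The groups overlapped, AAV-GFP replicate 2 was by far the highest, and the gene did not pass (log2 fold change -0.84, limma adjusted p = 0.0673). In DESeq2 with the deposited size factors it passed (-0.92, DESeq2 adjusted p = 0.0433). Without AAV-GFP replicate 2 its log2 fold change in limma was -0.43. Within AAV-Ly6d it was lowest in replicate 2, as was Cyp8b1.

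Among transporters, the tested genes had negative log2 fold changes, as did most of the table, where 39.3% of tested genes were above 0. Abcb1a, a canalicular multidrug efflux pump, held 81.3, 89.3 and 81.9 in AAV-GFP and 30.1, 51.8 and 20.7 in AAV-Ly6d. It fell by 1.37 on the log2 scale (SE 0.38, limma adjusted p = 0.0405), from a low level and with a near copy, Abcb1b, that can share reads. It did not pass without AAV-GFP replicate 1, AAV-GFP replicate 3, AAV-Ly6d replicate 1 or AAV-Ly6d replicate 3. Slco1b2, an organic anion carrier that takes up bile acids from blood, ranged from 34654 to 52332 in AAV-GFP and from 17483 to 34076 in AAV-Ly6d. It did not pass (-0.65, limma adjusted p = 0.0684), and its log2 fold change lay near the median of all tested genes. With 1 library left out it ranged from -0.85 to -0.37, the value nearest to 0 being that without AAV-Ly6d replicate 2, and without AAV-GFP replicate 2 it was -0.47.

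Of the other aquaporin genes, Aqp1 and Aqp4 were tested. Aqp1, a water channel of endothelium and bile duct cells, held 2476, 2159 and 2154 in AAV-GFP and 935, 825 and 957 in AAV-Ly6d. Its libraries lay close together in each group, and it fell by 1.32 on the log2 scale (SE 0.17, limma adjusted p = 0.0141). The call was lost without AAV-Ly6d replicate 1. Aqp4 ranged from 173 to 437 in AAV-GFP and from 153 to 179 in AAV-Ly6d, with overlap, and did not pass (-0.67, limma adjusted p = 0.0942). Its log2 fold change was -0.31 without AAV-GFP replicate 2, and leaving out AAV-GFP replicate 3 in its place gave -0.97. In the list of canalicular membrane proteins and scaffolds, Dpp4, an apical peptidase, fell by 0.63 on the log2 scale (limma adjusted p = 0.0464). It passed without AAV-GFP replicate 2, did not pass when any of the other 5 libraries was left out, and did not pass after rescaling (-0.28). Msn, a membrane-cytoskeleton linker found mainly outside hepatocytes, did not pass (-0.56, limma adjusted p = 0.0608). It passed without AAV-GFP replicate 2 (-0.67, limma adjusted p = 0.0463) and in DESeq2 (adjusted p = 0.0492).

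The 5 tested regulators of bile acid genes had positive log2 fold changes, where 39.3% of all tested genes did, and 3 of them rose, where 15.9% of all tested genes did. These shares do not account for transcript length, which moved with the fold change across the table. The longest transcripts of Foxa3 (2037 bases), Esrra (2489), Cebpa (2626) and Zfp36l1 (2990) are below the median of 3622 bases. That of Hnf4a (4362 bases) is above it. The part of length in these rises was not tested. Hnf4a, the hepatocyte nuclear receptor, held 13911, 10375 and 11803 in AAV-GFP and 20638, 18243 and 17487 in AAV-Ly6d, and rose by 0.65 (SE 0.19, limma adjusted p = 0.0409). Foxa3, a forkhead factor of hepatocytes, rose by 1.07 (limma adjusted p = 0.0408), and by 0.73 without AAV-GFP replicate 2. Zfp36l1, an RNA-binding protein known to destabilise Cyp7a1 mRNA, rose by 0.59 (limma adjusted p = 0.0458). The liver factors Cebpa (0.47) and Esrra (0.56) did not pass on the deposited scale and passed after rescaling, and Cebpa also passed without AAV-GFP replicate 2. Each of the 3 rises was lost without AAV-GFP replicate 1, AAV-GFP replicate 3 or any one AAV-Ly6d library. Nr1h4 (FXR), its target Nr0b2 (SHP) and Cyp7a1 were not analysed here.

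**Figure D3:**
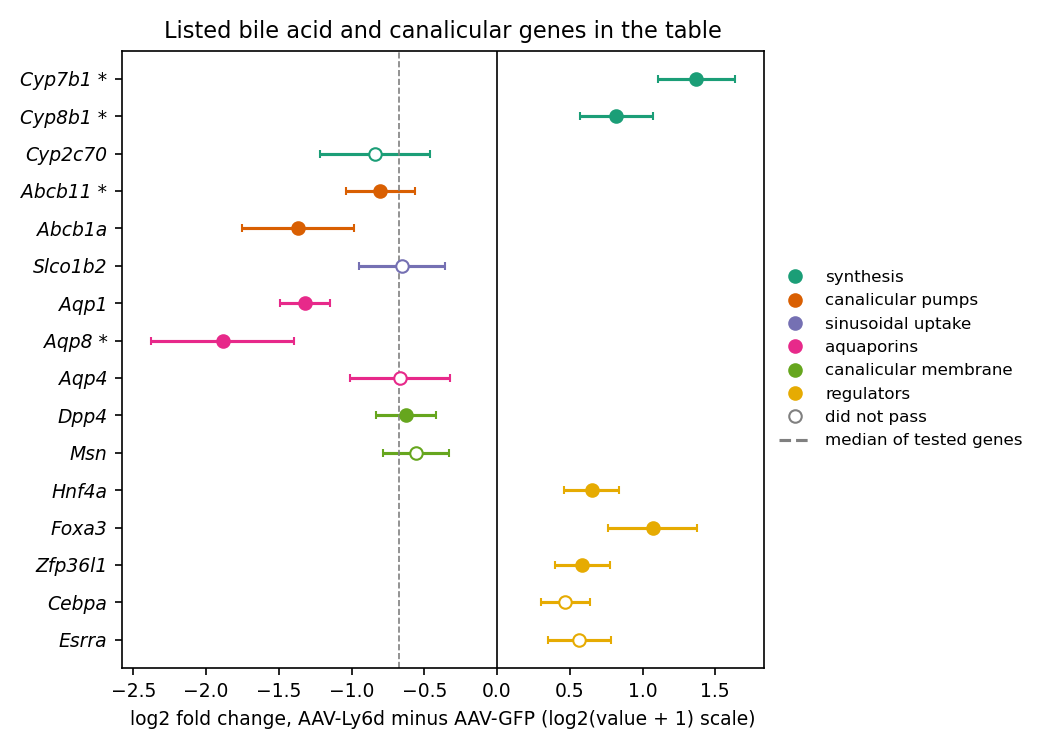
log2 fold change with SE (horizontal axis, AAV-Ly6d minus AAV-GFP) of the 16 tested genes of the 6 bile acid and canalicular lists, coloured by list, with open circles for genes that did not pass limma's threshold and an asterisk for Cyp7b1, Cyp8b1, Abcb11 and Aqp8. The dashed line is the median of all tested genes at -0.67, and the transport genes lie to the left of 0 and the regulators to its right.

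Sex-biased and clock genes were counted beside these genes, since Cyp7b1 is sex-biased and bile acid synthesis is known to vary over the day. Among all tested genes 15.9% rose and 28.0% fell. Transcript length, which moved with the fold change across the table, was not accounted for in the counts of this paragraph. Cyp7b1 is itself 1 of 17 tested male-biased liver genes. Of the other 16, 9 rose, 1 fell and 6 did not pass, with Serpina1e (log2 fold change 3.18), Selenbp2 (2.41) and Mup21 (1.68) among the rises; Serpina1e, Selenbp2 and the Mup genes have near copies that can share reads. The male-biased rises numbered 6 when AAV-GFP replicate 1 was left out and 5 when AAV-GFP replicate 3 was. They numbered 0, 7 and 1 when AAV-Ly6d replicates 1, 2 and 3 were left out in turn, and 14 with TMM factors in edgeR. The 1 fall, that of Ces2e, was lost in each of the 6 fits with 1 library left out and after rescaling. Of 6 tested female-biased genes 4 fell, among them Cyp2a22 (-2.83), Vldlr (-2.58) and Cyp2b9, which ranged from 216 to 2016 normalised read counts in AAV-GFP and was at most 3.26 in AAV-Ly6d, and 1, Cyp4a10, rose. That rise was kept in 1 of the 6 fits with 1 library left out, the one without AAV-GFP replicate 1. The falls numbered 0 when AAV-Ly6d replicate 1 was left out, and 2 when AAV-GFP replicate 3, AAV-Ly6d replicate 2 or AAV-Ly6d replicate 3 was. The longest transcripts of the named male-biased rises are 677 (Mup21), 1575 (Serpina1e) and 1719 bases (Selenbp2). Those of the named female-biased falls are 1876 (Cyp2b9), 3445 (Cyp2a22) and 7971 bases (Vldlr). Of 4 tested clock genes 1 rose, Nfil3 (1.17), a repressor that shares the D-box with Dbp, and 3 did not pass. After rescaling 3 of the 4 rose, and with TMM factors in edgeR 4 did. Nfil3 kept its call only without AAV-GFP replicate 2 or AAV-GFP replicate 3, of the 6 fits with 1 library left out. Dbp held 712, 223 and 743 in AAV-GFP and 1251, 756 and 1228 in AAV-Ly6d (limma adjusted p = 0.0626). The labels give neither the sex of the mice nor the time of collection, and the part of either in these values was not tested.

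Markers of other cell types also moved, in a table where 28.0% of tested genes fell and 15.9% rose. Transcript length, which moved with the fold change across the table, was not accounted for in the counts below. All 11 tested endothelial markers of 17 listed fell, with a summed normalised read count of 8223 to 13200.0 in AAV-GFP and 3005 to 3736 in AAV-Ly6d. Of 8 tested stellate cell and fibroblast markers of 15 listed 6 fell, with sums of 3560 to 5219 and 1101 to 2476. Of 15 bile duct and progenitor markers the 2 in the table, Tff3 and Sox9, rose, with sums of 59.2 to 80.2 and 303 to 1111. Of 5 tested erythroid markers of 8 listed 2 fell, with sums of 2708 to 5863 and 1898 to 2850, and Gzmb, the 1 tested of 11 lymphocyte markers, did not pass. Of 14 listed macrophage markers 0 were tested. Msr1, a macrophage scavenger receptor outside that list, ranged from 245 to 364 in AAV-GFP and from 135 to 177 in AAV-Ly6d. It fell by 1.00 on the log2 scale (limma adjusted p = 0.0351). Msr1 was named only because its profile lay nearest to that of Abcb11, so its direction was set by that choice. Its fall is not a result about macrophages. Hepatocyte markers in the table were 5 of 12: Apoa1, Tat and Hnf4a rose, and Serpina1a and Apob did not pass. Their sums were 331782 to 835348 in AAV-GFP, with Apob in replicate 2 at 743167, and 421017 to 454933 in AAV-Ly6d. Aqp1 is a marker of endothelium as well as of bile ducts, and the part of cell composition in these values was not tested. No marker of these lists in the table was at 0 in every library. With 1 library left out, the endothelial falls numbered 0 without AAV-Ly6d replicate 1, 3 if AAV-Ly6d replicate 3 was the one left out, and 9 to 11 otherwise. The stellate falls numbered 3 with AAV-GFP replicate 1 or 3 left out and 0 with AAV-Ly6d replicate 1 or 3 left out. The hepatocyte rises numbered 3 without AAV-GFP replicate 2 and 0 without each other library. The 2 bile duct markers passed together only without AAV-GFP replicate 2 or AAV-GFP replicate 3, and the erythroid falls numbered 1 without AAV-GFP replicate 1, 0 without each other library and 5 in DESeq2.

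The length of a transcript moved with its difference across the table. Over 1779 tested genes, which are not independent replicates, Spearman's rho between the length of the longest transcript and the log2 fold change was -0.30. The longest transcripts of the 4 genes are 2166 bases (Cyp7b1), 1950 bases (Cyp8b1), 5025 bases (Abcb11) and 1487 bases (Aqp8). Among 393 tested genes within 20% of the length of Abcb11 the median log2 fold change was -0.80, equal at this precision to that of Abcb11, and 25.7% of them were above 0. For Cyp8b1 the median of 201 such genes was 0.61, beside 0.82 for the gene itself, and for Cyp7b1 that of 236 genes was 0.59, beside 1.37. Aqp8 went against the genes of its length: the median of 150 such genes was 0.58 and 68.7% of them were above 0, beside -1.89 for Aqp8. The part of transcript length or RNA quality in the values was not tested.

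The direction of each gene was the same in the 6 fits that left out 1 library. The log2 fold change ranged from 1.15 to 1.52 for Cyp7b1 and from 0.61 to 1.07 for Cyp8b1. It ranged from -1.02 to -0.61 for Abcb11 and from -2.32 to -1.45 for Aqp8. The values for Abcb11 and Aqp8 nearest to 0 were those without AAV-GFP replicate 2, the library with the high Apob share. Cyp7b1 and Cyp8b1 were 1.47 and 0.87 without it.

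**Figure D4:**
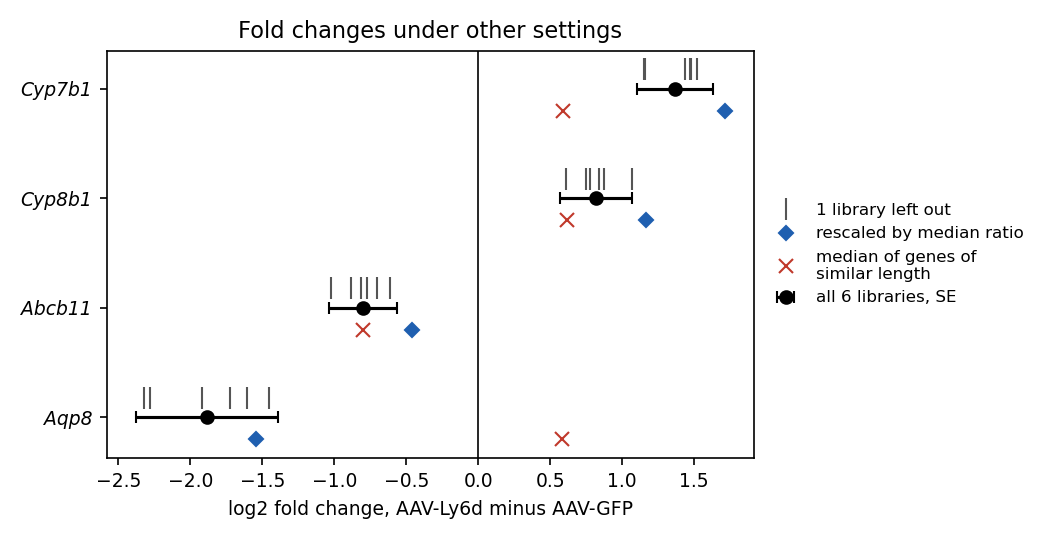
log2 fold change (AAV-Ly6d minus AAV-GFP) of Cyp7b1, Cyp8b1, Abcb11 and Aqp8 with all 6 libraries (black point, SE), with 1 library left out (grey ticks), after rescaling by the median ratio (blue diamond), and the median of tested genes within 20% of the gene's transcript length (red cross). The cross lies on the point for Abcb11 and on the other side of 0 for Aqp8.

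The genes with the most similar profiles were found by the root mean square difference between log2 values over the 6 libraries, each gene centred on its own mean, among 852 named protein-coding genes at or above the median level. For Cyp7b1 they were Sel1l3 (0.19), Csad (0.22), the gene of a taurine synthesis enzyme, and Slc25a33 (0.30), against a median difference of 0.67. For Cyp8b1 they were Amigo2 (0.21), Nr2c1 (0.24) and Irf9 (0.25), against 0.66. For Abcb11 they were Msr1 (0.13), Acer3 (0.16) and Keg1 (0.16), against 0.69. For Aqp8 they were Slc17a4 (0.39), Calcrl (0.42) and Pklr (0.44), against 1.34. These profiles are led by the difference between groups that selected the table. When each gene was centred on its group means instead, the nearest genes to Aqp8 were Pdk1 (0.32), Scd1 (0.33) and Acss2 (0.33), against a median of 0.69. Scd1 and Acss2 serve lipid synthesis. Pdk1, Scd1 and Acss2 were, like Aqp8, highest in AAV-GFP replicate 2, the library that stood apart. By the same measure the nearest to Cyp8b1 was Ces2e (0.06, against a median of 0.38), a carboxylesterase gene. Ces2e was lower in AAV-Ly6d while Cyp8b1 was higher. Of the 3 nearest genes, 0 were shared between both measures for Cyp7b1, Cyp8b1 and Aqp8, and 1, Msr1, for Abcb11.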

How the data were processed

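RNA from mouse liver was sequenced as 6 libraries. The submitters' processing notes name Bowtie 0.12.2 and mm10, with no role stated. The read counter, its annotation and the selection of genes were not given in the sources used here. Normalised read counts were deposited by the authors and are handled as a signal, never negative. Every value in a column was a whole multiple of 1 step (100% within 0.01 of a read), the form taken when the authors divide reads by a size factor. One read was worth between 0.844 and 1.09. Reads recovered this way enter only the alternative count tests, the read numbers and the Poisson intervals.

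Identifiers were matched to GENCODE M21 on GRCm38 (1833 of 1834 had a symbol). Differences were fitted with limma 3.58.1 in R 4.3.3 on log2(value + 1) with a mean-variance trend, over 1780 genes that reached a value of 1 in 3 or more libraries, adjusted by Benjamini-Hochberg over all of them; "rose" and "fell" mean an adjusted p under 0.05. Because the table was selected for a difference between these libraries, adjusted p-values in it understate the error. The fit was tested on simulated data for 1834 genes. It called 65 of 100 genes changed 2-fold, 96 of 100 changed 4-fold and 5 of 1634 unchanged genes. The simulated counts had a negative binomial dispersion of 0.05 for every gene, no selection of genes and no library that stood apart. These numbers therefore check the code and do not give the error in this selected table. Alternatives were other filters and pseudocounts, rescaling, no trend, a replicate block, each library left out, edgeR 4.0.16 and DESeq2 1.42.0 on recovered reads, and adjustment over all 55450 annotated genes, which was added after seeing the data. The 4 genes, the lists and the tests were chosen with earlier results of these data known. The rule for named genes took these 4, every tested gene of 5 bile acid lists, the 3 smallest p-values of other lists and the 3 nearest profiles; 1 listed gene is not reported here and was left out of the lists after the fits; Dpp4 and Msn fall under the lists, and Apob was chosen after its values were seen.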

Additional observations from a re-analysis of the deposited data

How the results depend on the processing

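All 4 genes kept their direction in the 16 alternative fits tried. Against the adjusted p of 0.05, Cyp7b1 passed in 13 of them, Aqp8 in 11, Cyp8b1 in 10 and Abcb11 in 8. After rescaling by the median ratio, the log2 fold change of Cyp8b1 moved to 1.16 and that of Abcb11 to -0.46; edgeR with TMM factors gave 1.16 for Cyp8b1. The number of the 4 genes that passed was 2 without the trend, and with each library left out it lay between 0 and 4. Adjusted over all 55450 annotated genes it was 0 in limma and 1, Cyp7b1, in DESeq2. The 782 calls became 465 in edgeR with the deposited size factors and 1338 in DESeq2, and 1 (limma) and 124 (DESeq2) over all annotated genes. They ranged from 0 to 607 with 1 library left out; limma's 0, without AAV-Ly6d replicate 1, stood beside 773 genes at an unadjusted p under 0.05, and the count tests were not run on that subset. Among calls, 36.2% were higher, beside 69.2% after rescaling and 69.1% with TMM factors. Of the other listed bile acid and canalicular genes 3 rose. This number was 5 after rescaling, with TMM factors and in DESeq2, 0 without the trend, 0 over all annotated genes in both tools, and 0 to 4 with 1 library left out. The 3 that fell became 5 in DESeq2, 0 (limma) and 1 (DESeq2) over all annotated genes, and 0 to 4 with 1 library left out. Ranges of the fold changes with 1 library left out were 1.15 to 1.52 (Cyp7b1), 0.61 to 1.07 (Cyp8b1), -1.02 to -0.61 (Abcb11) and -2.32 to -1.45 (Aqp8). The causes were not tested.

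Replicate numbers gave no sign of pairing: deviations from group means correlated at -0.02, -0.05 and -0.06 between libraries of the same number, and 0 of 6 libraries correlated best with their own number. With the replicate block 48 genes passed, 1 of the 4 genes (Cyp7b1), and 0 of the listed genes higher and 1 lower. The union of exons in place of the longest transcript changed no per-kb level by more than its SD.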
